A study of Mus musculus with 8 samples.

Results

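The genes described here are 8 genes of cholinergic neurotransmission and of the cytokine receptors that share the gp130 chain, measured by RNA-seq in dissected mouse sympathetic ganglia in which the LIM-homeodomain transcription factor *Isl1* was deleted or reduced. They were chosen by name: *Chat*, *Slc18a3*, *Slc5a7* and *Ache* for acetylcholine synthesis, storage, uptake and breakdown, *Tlx3* as a homeobox factor of cholinergic sympathetic neurons, and *Lifr*, *Il6st* and *Cntfr* as receptor chains. All 8 had a row among the 13506 genes listed at E11.5 and among the 13413 genes listed at E14.5. At E11.5, *Isl1* CKO ganglia (*Wnt1-Cre;Isl1* f/f, labelled Isl1-/-) were compared with control ganglia (*Wnt1-Cre;Isl1* +/+), and both carried a *Rosa26-tdTomato* reporter by which the ganglia were dissected. *Wnt1-Cre* recombines in the neural crest lineage, so cells of other origin in a ganglion keep *Isl1*. At E14.5, ganglia of *Isl1* hypomorphic embryos (*Isl1* f-neo/f-neo, labelled as an Isl1 mutation), in which the allele is lowered in the whole embryo, were compared with ganglia of wild type embryos. Each genotype had 2 libraries, each from the pooled ganglia of several embryos.

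The deposited unit was FPKM, fragments per kilobase of transcript scaled to the number of mapped fragments, which corrects for transcript length and allows levels of different genes to be set side by side. Only 1 value per gene and genotype was given, in which the 2 libraries were combined. The spread between libraries and the sequencing depth are therefore unknown from these values, no difference below was tested here, and the values carry no error. Differences are given as log2 ratios of mutant over control after adding 0.1 to each FPKM, and a ratio of 1.5-fold or more (0.58 on the log2 scale) was counted as higher or lower. The stages were normalised separately and used different alleles, so their values are set side by side only.

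Most sympathetic neurons release noradrenaline, but a minority become cholinergic, such as those that innervate sweat glands. A cholinergic neuron takes up choline through the transporter encoded by *Slc5a7*, converts it to acetylcholine with choline acetyltransferase (*Chat*), and loads it into vesicles with the transporter encoded by *Slc18a3* (VAChT), while acetylcholinesterase (*Ache*) ends the signal. Leukaemia inhibitory factor and ciliary neurotrophic factor are known to shift cultured sympathetic neurons toward the cholinergic phenotype. They bind receptors built from the shared chain gp130 (*Il6st*), the LIF receptor chain (*Lifr*) and, for ciliary neurotrophic factor, a membrane-anchored binding chain (*Cntfr*), and signal through JAK kinases and STAT factors.

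The sequences upstream of 4 of these genes are shown, chosen for the locus and the differences named next. No link between sequence and FPKM was tested. *Chat* and *Slc18a3* form 1 locus, in which *Slc18a3* lies within the first intron of *Chat* and is read from the same strand, *Slc5a7* had the largest difference at E11.5, and *Tlx3* differed in opposite directions at the 2 stages. Each is the 250 bases before the RefSeq start (table of build GRCm38.p6, matched exactly to mm9), written 5′ to 3′ on the strand of the gene. Capitals mark matches to the searched motifs, and lower case the remaining bases. The mm9 positions are chr11:33103589-33103838 for *Tlx3*, chr17:54438360-54438609 for *Slc5a7*, chr14:33279096-33279345 for *Chat* and chr14:33278037-33278286 for *Slc18a3*, all on the minus strand.
Tlx3: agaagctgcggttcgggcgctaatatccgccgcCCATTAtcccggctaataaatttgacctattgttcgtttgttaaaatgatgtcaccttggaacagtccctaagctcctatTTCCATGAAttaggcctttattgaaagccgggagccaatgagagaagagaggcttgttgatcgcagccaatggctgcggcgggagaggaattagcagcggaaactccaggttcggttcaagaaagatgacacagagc
Slc5a7: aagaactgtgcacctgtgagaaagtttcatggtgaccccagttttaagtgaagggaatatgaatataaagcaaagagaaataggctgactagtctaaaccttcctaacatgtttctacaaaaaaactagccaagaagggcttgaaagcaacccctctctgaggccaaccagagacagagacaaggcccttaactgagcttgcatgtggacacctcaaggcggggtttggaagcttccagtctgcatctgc
Chat: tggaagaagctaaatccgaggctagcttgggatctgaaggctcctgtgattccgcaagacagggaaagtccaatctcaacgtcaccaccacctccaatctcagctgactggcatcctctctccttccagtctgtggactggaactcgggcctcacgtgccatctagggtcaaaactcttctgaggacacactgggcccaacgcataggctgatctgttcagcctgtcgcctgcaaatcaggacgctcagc
Slc18a3: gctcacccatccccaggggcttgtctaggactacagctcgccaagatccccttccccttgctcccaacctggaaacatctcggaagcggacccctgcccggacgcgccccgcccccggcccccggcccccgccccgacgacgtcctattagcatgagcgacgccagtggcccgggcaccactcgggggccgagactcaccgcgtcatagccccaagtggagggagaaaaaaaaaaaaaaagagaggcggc

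Both strands were searched for TAATTG and TAATGG, which begin with the same 4 letters and are forms of the homeodomain motif known for ISL1, and for TTCNNNGAA, the letters bound by STAT dimers. Over the 32851 RefSeq windows of 250 bases, 7.17% held TAATTG, 6.57% held TAATGG and 7.02% held TTCNNNGAA. The 8 genes have 14 such windows because *Cntfr* and *Lifr* have several starts. The *Tlx3* window held TAATGG, read as CCATTA on the printed strand with its first base 217 bases before the start, and TTCNNNGAA, as TTCCATGAA with its first base 137 bases before the start, and the matches did not overlap. The window of *Il6st* also held TAATGG, 248 bases before its RefSeq start at chr13:113254278. That start lies upstream of the mm9 span of *Il6st* given below. No window of these genes held TAATTG. These are matches of letters and were not tested as binding sites. GC content was 48.8% for *Tlx3*, 45.6% with 1 CpG for *Slc5a7*, 54.8% for *Chat* and 66% for *Slc18a3*, against a median of 52.4% over all windows.

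In mm9, *Chat* spans chr14:33221389-33279095 on the minus strand, and the start of *Slc18a3* at 33278036 lies 1059 bases downstream of the *Chat* start, after exon 1 of both annotated *Chat* transcripts. The other genes lie at chr17:54412919-54438359 (*Slc5a7*, minus strand), chr5:137728747-137735694 (*Ache*, plus), chr11:33100752-33103588 (*Tlx3*, minus), chr15:7079559-7147489 (*Lifr*, plus), chr13:113265216-113297068 (*Il6st*, plus) and chr4:41604529-41644121 (*Cntfr*, minus). Of these genes, *Cntfr* was the only 1 of the 7 with an mm9 gene model that had exons with a second exact copy on the same chromosome. There, 4 of its 18 distinct exons and 12.1% of its exon bases had such a copy. Only uniquely mapped reads were used for the FPKM, so the level of *Cntfr* is uncertain to that extent. Whether *Chat* and *Slc18a3* share exon bases in the models used for the FPKM was not checked, so how reads of this locus were assigned is unknown. *Gm2990*, annotated on the opposite strand, also overlaps *Chat*, and whether the libraries kept strand is not given in the sources used here.

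*Isl1* itself was listed at 133 FPKM in E11.5 control and 40.01 FPKM in CKO ganglia, a log2 ratio of -1.73. At E14.5 it was listed at 162 FPKM in control and 83.1 FPKM in hypomorphic ganglia, a log2 ratio of -0.96. The mutant was the lower genotype at both stages, and neither mutant was near 0. The value covers the whole gene, and which exons the CKO allele removes is not given in the sources used here. Sympathetic neuron markers such as *Dbh* (dopamine beta-hydroxylase, 543 FPKM in control and 594 FPKM in CKO ganglia at E11.5) and *Stmn2* (a neuronal tubulin regulator, 598 and 433 FPKM) were abundant, and all 9 markers on that list had a row at both stages. Of 6 spinal motor neuron markers, which would mark another cholinergic cell type, only *Isl2* had a row, at 0.373 FPKM in control and 1.2 FPKM in CKO ganglia at E11.5, and none had a row at E14.5.

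The E11.5 ganglia also differed in markers of other cells. Marker counts here and below are to be read against the shares of all rows past 1.5-fold. These were 18.9% higher and 12.9% lower at E11.5, and 2.89% higher and 2.12% lower at E14.5. Genes under 1 FPKM in both genotypes were left out by the authors. A gene under 1 FPKM in 1 genotype was therefore listed only through the other, which fixed its direction. For 11 listed erythroid genes the total FPKM was 10885 in control against 69058 in CKO ganglia. Of these, 10 were higher, while *Hbb-y* was listed at 7552 FPKM in control and 0 in CKO ganglia. *Hbb-y* thus made up most of the control sum and none of the CKO sum. Whether that 0 is a level or a fault of quantification was not tested. Of the glial and neural crest markers, 7 of 8 were higher in CKO ganglia, with a summed FPKM of 177 in control and 387 in CKO ganglia. Among the 9 sympathetic neuron markers, 3 were lower and none was higher, with sums of 2232 and 1787 FPKM. In whole ganglia, fewer cells of a type and less RNA per cell cannot be told apart. Placental prolactin family genes (3 listed of 6 trophoblast and decidua markers) totalled 0.497 FPKM in control against 67.3 FPKM in CKO ganglia. All 3 were listed only through CKO ganglia. At E14.5 the marker sums were 5637 FPKM in control and 6852 FPKM in hypomorphic ganglia for 13 erythroid genes, 365 and 410 FPKM for glia, and 3554 and 3012 FPKM for sympathetic neurons. Megakaryocyte markers were higher for 4 of 5 genes at each stage. Their sums were 21.1 and 77.7 FPKM at E11.5, but 33.7 and 35.1 FPKM at E14.5, control first. The other marker, *Gp1bb*, was the most abundant at E14.5, at 22.2 FPKM in control and 15.9 FPKM in hypomorphic ganglia. *Gp9* had a row only through the mutant at both stages. The endothelial sum was 1.28 times control in CKO and 1.42 times control in hypomorphic ganglia, and the sum of 3 liver genes was 1.51 and 1.58 times control.

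At E11.5, as deposited, *Slc5a7* and *Ache* were higher in *Isl1* CKO ganglia, and *Tlx3* and *Lifr* were lower. *Chat*, *Slc18a3*, *Il6st* and *Cntfr* differed by less than 1.5-fold. The calls of these 4 genes and of *Lifr* depended on the scaling. The count of 2 higher and 2 lower of 8 stands against 18.9% of all rows that were higher and 12.9% that were lower at this stage. The median log2 ratio of the 8 genes was -0.02, against 0.05 over all rows. As deposited, the group as a whole did not lie to one side, and its 4 positive and 4 negative ratios ran from -1.54 to 2.41.

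**Figure D1:**
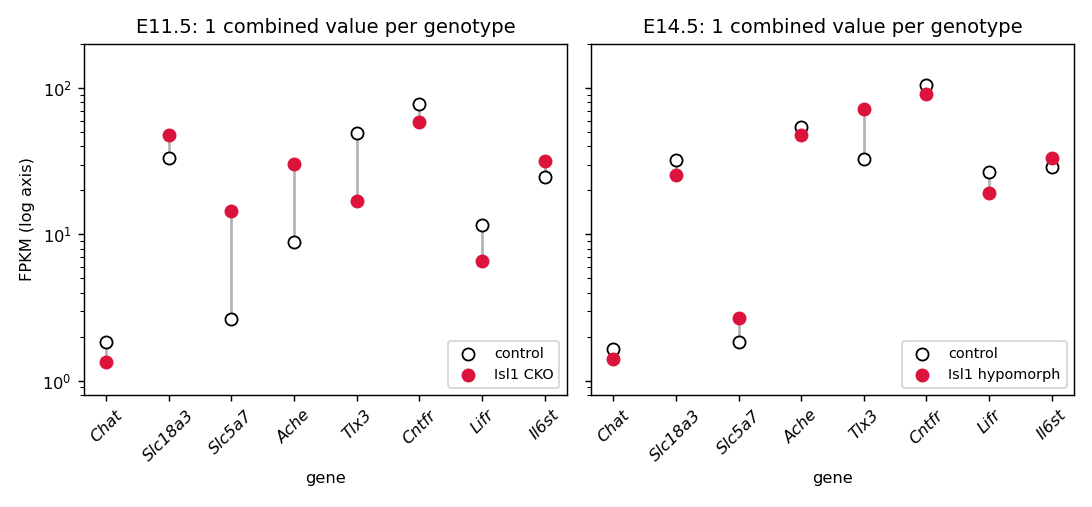
FPKM on a log axis of the 8 genes in control (open circles) and *Isl1* mutant (filled circles) ganglia at E11.5 (left) and E14.5 (right), with 1 combined value per genotype and a grey line joining the pair. *Slc5a7* and *Ache* lie 5.49-fold and 3.4-fold above control in E11.5 CKO ganglia, and the *Tlx3* pair is inverted between the stages.

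The vesicular transporter gene *Slc18a3* was listed at 33.3 FPKM in control and 47.6 FPKM in CKO ganglia at E11.5, a log2 ratio of 0.51. *Chat*, from the same locus, was listed at 1.83 FPKM in control and 1.34 FPKM in CKO ganglia, a log2 ratio of -0.43. Over the scalings tried, the log2 ratio ran from 0.28 to 0.93 for *Slc18a3* and from -0.65 to -0.01 for *Chat*. The ratio of *Slc18a3* to *Chat*, which does not depend on scaling, was 18.2 in control and 35.6 in CKO ganglia. *Chat* was the lowest of the 8 genes in all 4 columns, and its values near 1 FPKM sit close to the limit below which genes were left out of the tables.

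The choline transporter gene *Slc5a7* was listed at 2.64 FPKM in control and 14.5 FPKM in CKO ganglia at E11.5. This 5.49-fold difference, a log2 ratio of 2.41, was the largest of the 8 genes and exceeded that of 98.1% of all rows. *Ache* was listed at 8.83 FPKM in control and 30.0 FPKM in CKO ganglia, a 3.4-fold difference with a log2 ratio of 1.75. Acetylcholinesterase is also known from red blood cells and skeletal muscle. Skeletal muscle markers were higher for 3 of 8 listed genes, with sums of 118 FPKM in control and 178 FPKM in CKO ganglia. The summed FPKM of erythroid genes was 6.34-fold higher and that of megakaryocyte markers 3.68-fold higher in the same CKO ganglia. The erythroid sum counts *Hbb-y*, listed at 7552 FPKM in control and 0 in CKO ganglia, so the fold of the other erythroid genes together was larger. The part of these cells in the *Ache* and *Slc5a7* values was not tested. Rescaling both columns without the erythroid genes left the log2 ratios at 2.18 for *Slc5a7* and 1.52 for *Ache*. This rescaling multiplies all remaining genes of a column by the same factor. It removes no erythroid or megakaryocyte RNA from the *Ache* and *Slc5a7* values, so it cannot show the part of these cells.

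*Tlx3* was listed at 49.5 FPKM in control and 16.9 FPKM in CKO ganglia at E11.5, a 2.92-fold difference with a log2 ratio of -1.54. This placed it among the lowest 1.9% of rows by ratio. Under the scalings tried, its log2 ratio at E11.5 lay between -1.78 and -1.13. The sum of sympathetic neuron markers was 0.8 times the control value in the same ganglia, and its part in the *Tlx3* value was not tested. *Tlx3* is also known from sensory neurons, whose markers (5 listed of 6) were higher for 3 genes and lower for none, with sums of 16.2 FPKM in control and 19.0 FPKM in CKO ganglia. The 3 higher genes were each under 5 FPKM in both genotypes. Of these, *Pou4f1* (0.676 and 1.57 FPKM) and *Prdm12* (0.435 and 1.63 FPKM) were under 1 FPKM in control. They had a row only through CKO ganglia, so they could not have been listed as lower. *Prrxl1*, the most abundant of these markers, was listed at 10.1 FPKM in control and 7.98 FPKM in CKO ganglia.

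The receptor chains differed from each other at E11.5. *Lifr* was listed at 11.6 FPKM in control and 6.56 FPKM in CKO ganglia, a 1.76-fold difference with a log2 ratio of -0.81. Centred on the sympathetic neuron markers, the *Lifr* ratio came to -0.39, under 1.5-fold. *Il6st* was listed at 24.5 FPKM in control and 31.6 FPKM in CKO ganglia, a log2 ratio of 0.37. *Cntfr*, the most abundant of the 8 genes, was listed at 77.4 FPKM in control and 58.6 FPKM in CKO ganglia, a log2 ratio of -0.40. The ratio of *Lifr* to *Il6st*, both signalling chains of the complex, was 0.473 in control and 0.208 in CKO ganglia, a 2.28-fold difference. This ratio within a column does not depend on how the columns were scaled, and it shows an unequal difference of the chains without saying which of them differed. The ratio of *Cntfr* to *Il6st* was 3.16 in control and 1.85 in CKO ganglia. *Il6st* is expressed in most cell types. Mesenchyme markers were higher for 5 of 8 genes in the same CKO ganglia, with sums of 579 and 1008 FPKM, and the part of other cells in these ratios was not tested.

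Scaling moved the E11.5 ratios of all rows and is therefore given once. Rescaling without erythroid genes shifted the median log2 ratio of all rows by -0.23, and centring on the sympathetic neuron markers shifted it by 0.42. Of the rows past 1.5-fold, 2552 were higher and 1746 lower as deposited, 1654 were higher and 3044 lower without erythroid genes, and 5550 were higher and 651 lower when centred on the sympathetic markers. The sign of *Cntfr* flipped at E11.5 in the last setting, from -0.40 to 0.01, and *Chat* came to -0.01, so neither has a direction independent of scaling. The other 6 genes kept their sign under the 3 scalings. Calls moved for 5 genes. Without erythroid genes, *Chat* (-0.65) and *Cntfr* (-0.64) were past 1.5-fold lower. Centred on the sympathetic markers, *Slc18a3* (0.93) and *Il6st* (0.78) were past 1.5-fold higher, and *Lifr* (-0.39) was under 1.5-fold.

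**Figure D2:**
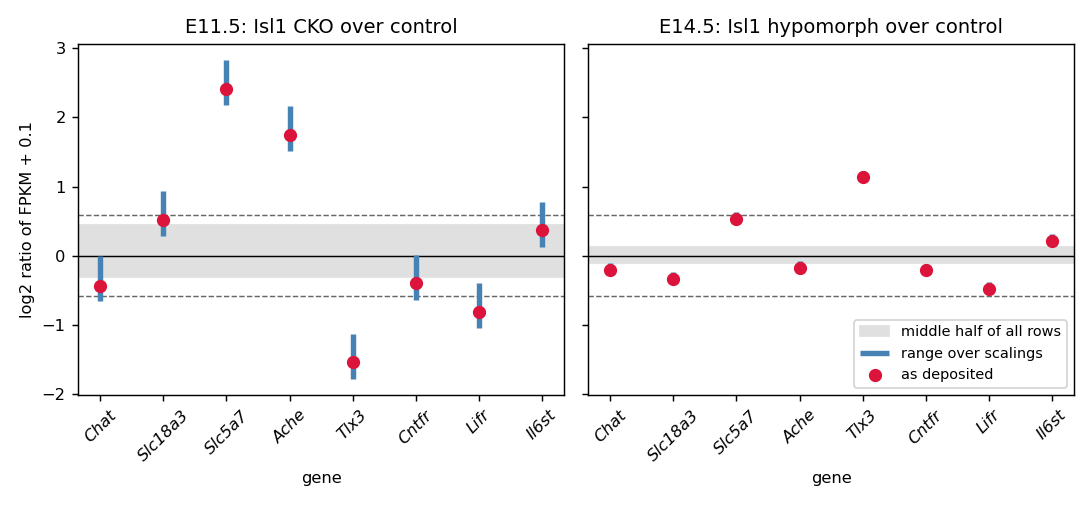
Log2 ratio of mutant over control FPKM + 0.1 for the 8 genes at each stage (points, as deposited). Blue bars span the values over the scalings tried, the grey band holds the middle 50% of all rows, and dashed lines mark 1.5-fold. At E11.5 *Slc5a7* spans 2.18 to 2.83 and *Tlx3* -1.78 to -1.13, and the bar of *Cntfr* reaches 0.01.

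At E14.5, *Tlx3* was higher in *Isl1* hypomorphic ganglia, and the other 7 genes differed by less than 1.5-fold. The count of 1 higher and 0 lower of 8 stands against 2.89% of all rows that were higher and 2.12% that were lower at this stage. The median log2 ratio of the 8 genes was -0.19, against 0.00 over all rows, with 5 ratios below 0. Of the rows past 1.5-fold, 387 were higher and 284 lower as deposited, and 608 were higher and 206 lower when centred on the sympathetic markers, which shifted the median of all rows by 0.10. No test stands behind these counts.

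*Tlx3* was listed at 32.8 FPKM in control and 72.3 FPKM in hypomorphic ganglia at E14.5, a 2.2-fold difference with a log2 ratio of 1.14. The sensory neuron markers with a row at this stage, 4 of 6, were higher for 1 gene and lower for none, with sums of 9.10 and 10.1 FPKM. The *Tlx3* ratio exceeded that of 99.2% of rows, and it lay between 1.13 and 1.23 under the scalings tried. Together with the lower value in CKO ganglia at E11.5, *Tlx3* was as deposited the only 1 of the 8 genes past 1.5-fold at both stages, while *Slc5a7* was also past it at both (2.83 and 0.63) when centred on the sympathetic markers. Of the 12727 genes listed once in both tables, 110 (0.864%) were lower at E11.5 and higher at E14.5, and 52 (0.409%) showed the reverse. Small RNA genes were kept in these counts. The stages differ in allele and in reach of the mutation as well as in age, and these cannot be told apart.

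The genes of acetylcholine handling lay closer to control at E14.5. *Slc5a7* was listed at 1.84 FPKM in control and 2.70 FPKM in hypomorphic ganglia, a log2 ratio of 0.53, which came to 0.63 when centred on the sympathetic markers. *Slc18a3* was listed at 32.0 FPKM in control and 25.5 FPKM in hypomorphic ganglia, a log2 ratio of -0.33. *Chat* was listed at 1.64 FPKM in control and 1.41 FPKM in hypomorphic ganglia, a log2 ratio of -0.20. *Ache* was listed at 54.5 FPKM in control and 48.0 FPKM in hypomorphic ganglia, a log2 ratio of -0.18. Of these 4 genes, only the choline transporter gene was above its control at both stages. The ratio of *Slc18a3* to *Chat* was 19.5 in control and 18.0 in hypomorphic ganglia.

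Among the receptor chains at E14.5, *Lifr* was listed at 26.8 FPKM in control and 19.2 FPKM in hypomorphic ganglia, a log2 ratio of -0.48. *Il6st* was listed at 28.8 FPKM in control and 33.3 FPKM in hypomorphic ganglia, a log2 ratio of 0.21. *Cntfr* was listed at 105 FPKM in control and 90.5 FPKM in hypomorphic ganglia, a log2 ratio of -0.21. Each chain lay on the same side of its control as at E11.5, with the exception noted for *Cntfr* under scaling. The ratio of *Lifr* to *Il6st* was 0.932 in control and 0.576 in hypomorphic ganglia, a 1.62-fold difference.

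**Figure D3:**
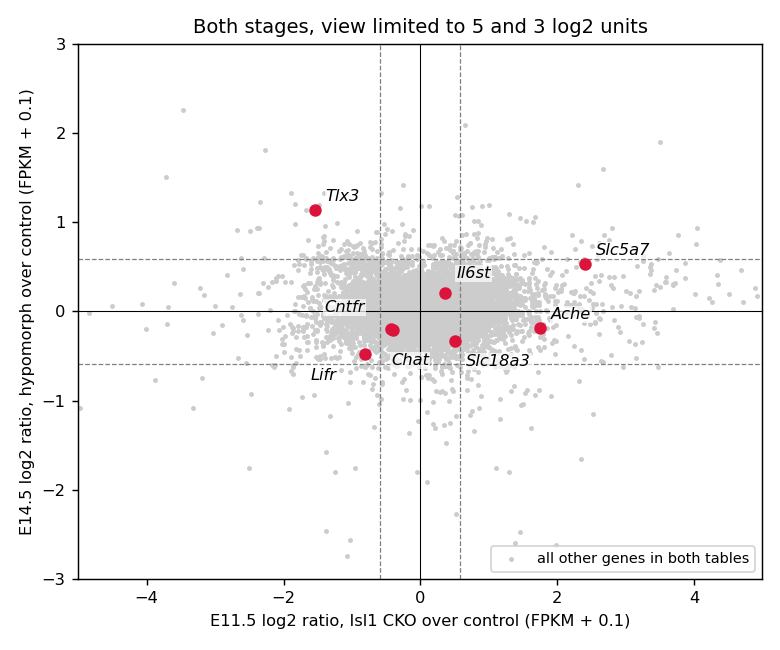
Log2 ratio of FPKM + 0.1 at E11.5 (x axis) against E14.5 (y axis) for the 8 genes (red) and all other genes in both tables (grey), with dashed lines at 1.5-fold. *Tlx3* lies at -1.54 and 1.14, *Slc5a7* at 2.41 and 0.53, and *Chat* and *Cntfr* almost coincide.

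The order of levels was partly shared between columns. In E11.5 control ganglia it ran from *Cntfr* (percentile 92.3 among the rows of the column) over *Tlx3* (87.1), *Slc18a3* (80.2), *Il6st* (73), *Lifr* (50.8), *Ache* (43) and *Slc5a7* (17.4) to *Chat* (12.5). In E11.5 CKO ganglia *Ache* stood at percentile 77.8, *Tlx3* at 62.6 and *Slc5a7* at 58, between *Il6st* (78.9) and *Lifr* (34.7). In E14.5 control ganglia *Ache* was second at percentile 87.8, and *Tlx3* (77.8), *Slc18a3* (77.2), *Il6st* (74.6) and *Lifr* (72.5) followed closely. In E14.5 hypomorphic ganglia *Tlx3* stood second at percentile 91.6. *Cntfr* was first and *Chat* last throughout. With 1 value per genotype, whether neighbours in these orders differ beyond their spread cannot be said.

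Set against *Dbh*, the enzyme that makes noradrenaline, the cholinergic transcripts remained small. *Slc18a3* was 6.13% of the *Dbh* FPKM in control and 8% in CKO ganglia at E11.5, and 5.26% in control and 4.49% in hypomorphic ganglia at E14.5. *Slc5a7* was 0.485% in control and 2.44% in CKO ganglia at E11.5, and 0.303% and 0.476% at E14.5. *Chat* lay between 0.225% and 0.337% in the 4 columns. *Ache* was 1.63% of the *Dbh* FPKM in control and 5.06% in CKO ganglia at E11.5. At E14.5 it was 8.97% in control and 8.46% in hypomorphic ganglia, above the other cholinergic genes given here. Of the vesicular transporters, *Slc18a3* was 0.439 times *Slc18a2*, the vesicular monoamine transporter gene, in control and 0.694 times in CKO ganglia at E11.5, and 0.241 and 0.185 times at E14.5.

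The genes whose ratios at both stages were most like those of each gene were found among 9499 genes with an FPKM of 5 or more at both stages, by the distance between their pairs of log2 ratios. *Tlx3* and *Slc5a7* had few genes near them, with 3 and 2 within a distance of 0.25. The nearest to *Tlx3* were the small nucleolar RNA gene *Snora33* (distance 0.081), *Rgs5* (0.123), a regulator of G protein signalling, and *Snora81* (0.238). Small RNA genes were kept in this search although the libraries were of polyA RNA, so the values of *Snora33* and *Snora81* are uncertain. The nearest to *Slc5a7* were *Mt1* (0.058), a metallothionein, *Pf4* (0.229), which is one of the megakaryocyte markers, and *Ucp2* (0.261), a mitochondrial carrier. *Ache* had 18 genes within 0.25, led by *Prr13*, *Dyrk3* and *Rsph9*, and *Lifr* had 44, led by *Cwc22*, *Arhgef28* and *Miat*. *Slc18a3* had 386, led by *Bbc3*, *Slc1a4* and *Rusc1*. *Chat*, *Il6st* and *Cntfr* lay in the bulk of genes, with 1119, 1045 and 1113 within 0.25, led by *Mospd2*, *Clstn1* and *Krba1*, by *Rassf8*, *Dpm3* and *Dis3l*, and by *Chkb*, *Aff3* and *Wdr13*.

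Counts for the gene lists that follow are to be read against the shares over all rows, 18.9% higher and 12.9% lower at E11.5 and 2.89% higher and 2.12% lower at E14.5. Of 7 other genes of acetylcholine handling listed at each stage, 1 was higher and none lower at E11.5, and none was past 1.5-fold at E14.5, with median log2 ratios of -0.07 and -0.13. The gene higher at E11.5 was *Bche*, which encodes butyrylcholinesterase, at 9.56 FPKM in control and 18.7 FPKM in CKO ganglia. *Slc10a4*, a synaptic vesicle transporter gene and the most abundant of the list, was listed at 66.5 FPKM in control and 63.2 FPKM in CKO ganglia at E11.5, and at 51.1 and 34.1 FPKM at E14.5, a log2 ratio of -0.58 that was just under 1.5-fold.

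Ligands of the gp130 receptors were scarce in the ganglia. Of 11 ligand genes, 2 had a row at E11.5 and 4 at E14.5, and *Lif* had no row at either stage. *Cntf* was listed at 1.14 FPKM in control and 0.638 FPKM in CKO ganglia at E11.5, the 1 gene of the list past 1.5-fold, and at 1.42 and 2.01 FPKM at E14.5. At E11.5 *Cntf* had a row only through control ganglia, so it could not have been listed as higher. *Ctf1*, encoding cardiotrophin, was the most abundant, at 1.53 and 2.32 FPKM at E11.5 and 2.04 and 2.76 FPKM at E14.5. Of the other receptor chains, only *Il11ra1*, the interleukin-11 receptor, of 4 had a row, at 7.09 FPKM in control and 13.2 FPKM in CKO ganglia at E11.5 and at 5.81 and 7.98 FPKM at E14.5. Mice carry near-identical copies of this gene, so its level is uncertain.

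Among 13 genes of JAK-STAT signalling, 4 were higher and 1 lower in CKO ganglia at E11.5, and 1 was lower in hypomorphic ganglia at E14.5. *Jak1*, the kinase that associates with gp130, was listed at 24.8 FPKM in control and 41.4 FPKM in CKO ganglia at E11.5, and at 25.9 and 24.8 FPKM at E14.5. *Socs2*, a feedback inhibitor, was lower in the mutant at both stages, at 41.4 and 24.3 FPKM at E11.5 and 20.7 and 12.7 FPKM at E14.5. The other 3 higher at E11.5, named after their values were seen because each was under 5 FPKM, were the inhibitors *Socs1* (1.38 and 2.83 FPKM), *Socs3* (0.935 and 2.81 FPKM) and *Cish* (1.55 and 4.47 FPKM). *Socs3* had a row only through CKO ganglia, so it could not have been listed as lower. *Stat3* was listed at 12.8 and 14.1 FPKM at E11.5 and at 19.0 and 20.9 FPKM at E14.5. *Ptpn11*, a phosphatase bound by gp130, was the most abundant at E14.5, at 42.4 and 42.9 FPKM.

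Of 7 listed cytokine response genes, 4 were higher and 1 lower at E11.5, with a median log2 ratio of 0.96, and none was past 1.5-fold at E14.5. Among genes with at least 5 FPKM in a genotype, 1 was higher at E11.5 and the median was -0.19. *Junb* was listed at 2.44 FPKM in control and 5.93 FPKM in CKO ganglia, and *Pim1*, the most abundant at E11.5, at 50.8 and 33.8 FPKM. *Myc* was the most abundant at E14.5, at 44.4 and 32.6 FPKM. Of the 4 higher genes, 3 were under 5 FPKM in both genotypes. Macrophage markers, whose cells respond to cytokines, were higher for 5 of 5 genes in the same E11.5 CKO ganglia, with sums of 19.3 and 46.7 FPKM, and their part in these values was not tested. Of these markers, *Fcgr1* (0.408 and 1.11 FPKM) was listed only through CKO ganglia.

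Genes that mark cholinergic sympathetic neurons, a list that overlaps the set the study itself drew on and so gives no independent evidence, differed between stages. At E11.5, 1 was higher and 1 lower of 6 listed, and at E14.5, 3 were higher and none lower of 5. *Vip*, a neuropeptide of sudomotor neurons, was listed at 26.9 FPKM in control and 7.18 FPKM in CKO ganglia at E11.5, and at 18.0 FPKM in control and 45.3 FPKM in hypomorphic ganglia at E14.5. *Sst*, encoding somatostatin, was listed at 44.6 and 80.4 FPKM at E11.5 and at 74.9 and 151 FPKM at E14.5. *Ret*, a receptor tyrosine kinase, was listed at 106 and 97.6 FPKM at E11.5 and at 68.8 and 130 FPKM at E14.5.

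The noradrenergic genes are the counterpart. Of 10, none was higher and 5 were lower in CKO ganglia at E11.5, with a median log2 ratio of -0.47. *Gch1*, for the cofactor of catecholamine synthesis, was listed at 46.6 and 13.2 FPKM, and *Slc6a2*, the noradrenaline transporter gene, at 61.4 and 18.9 FPKM. *Maoa*, a monoamine oxidase gene, was listed at 147 and 68.3 FPKM, and *Npy*, a cotransmitter gene, at 123 and 81.6 FPKM. At E14.5, 1 was higher and 1 was lower. The homeobox gene *Hmx1* was listed at 366 and 108 FPKM, and *Slc18a1*, the other vesicular monoamine transporter gene, at 18.2 and 44.4 FPKM. *Hmx1* was also the remaining lower gene at E11.5, at 4.88 FPKM in control and 0.774 FPKM in CKO ganglia, a log2 ratio of -2.51. It was under 5 FPKM in both genotypes there and had a row only through control ganglia.

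**Figure D4:**
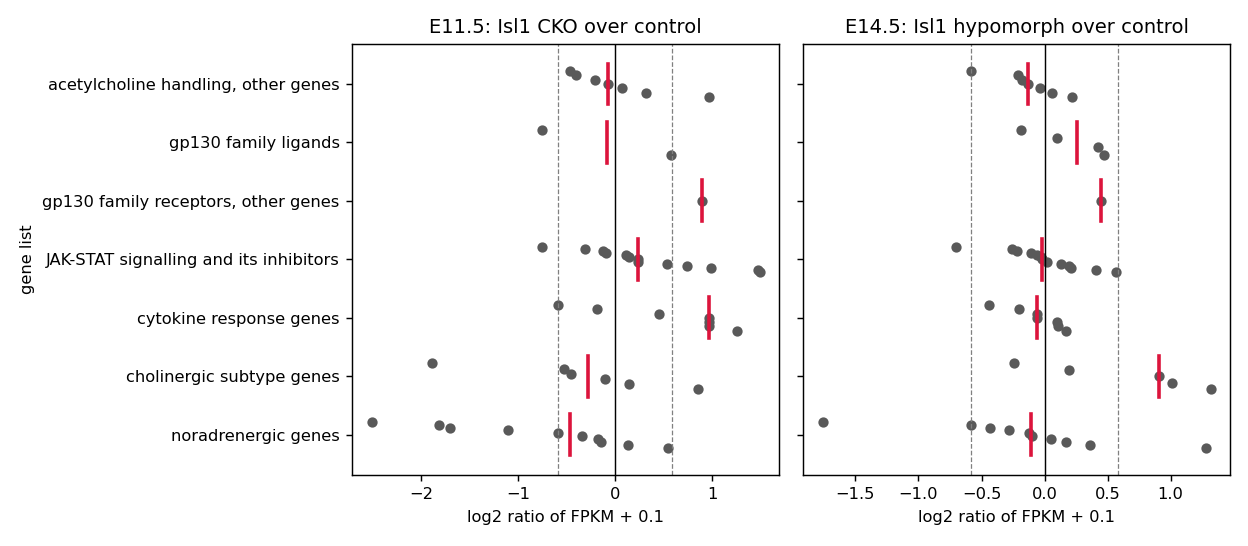
Log2 ratio of FPKM + 0.1 (x axis) for each listed gene (grey points) of 7 gene lists (y axis) at E11.5 and E14.5, with the list median in red and dashed lines at 1.5-fold. The median of the cytokine response genes lies at 0.96 at E11.5 (-0.19 with a minimum of 5 FPKM) and -0.06 at E14.5, and that of the cholinergic subtype genes at -0.29 and 0.91.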

How the data were processed

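RNA-seq was made from 8 libraries of sympathetic ganglia, 2 per genotype and stage. To obtain FPKM, the authors aligned reads of polyA RNA to mm9 with TopHat, took uniquely mapped reads and ran cuffdiff, so that both libraries of a genotype share 1 value. The submitters' processing notes name Bowtie, TopHat 1.3.1, Cuffdiff 1.3.0 and a fly build instead, and the difference could not be settled. The deposited tables hold no gene below 1 FPKM in both genotypes. The authors' columns of log2 fold changes and p-values were not used. Depth is unknown, so no precision is given.

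Log2 ratios were computed with a pseudocount of 0.1 after a minimum of 1 FPKM in 1 or both genotypes, which removed 0 rows, and 1.5-fold was the threshold. With 1 value per genotype no test was made. The members, the gene lists and the naming rule were chosen with earlier results of these data known. That rule names all 8 genes and *Isl1*, the most abundant gene of each list and up to 4 of its genes past 1.5-fold at an FPKM of 5 or more, and the 3 nearest genes of each member. A gene of the noradrenergic list is not reported here and is left out of its counts. Promoter windows came from RefSeq (GRCm38.p6), and *Slc18a3*, not named in the mm9 annotation used, was placed by its window. Alternatives were other pseudocounts, filters, scalings and thresholds. Only the log2 ratios and the 1.5-fold calls were tested on simulated data, with less spread than the E11.5 ratios showed. The scalings, lists, nearest genes, proportions and promoter search were not. Python 3.11.15, numpy 2.4.6, pandas 2.3.3 and matplotlib 3.10.9 were used.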

Additional observations from a re-analysis of the deposited data

Results flagged for a closer look

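*Tlx3* was past 1.5-fold in opposite directions at the 2 stages, with log2 ratios of -1.54 in E11.5 CKO ganglia and 1.14 in E14.5 hypomorphic ganglia. *Vip* showed the same pattern, with log2 ratios of -1.89 and 1.32. The difference between stages was not tested, because each genotype has 1 combined value, and stage and allele cannot be told apart.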

How the results depend on the processing

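Of 611 values recomputed under the alternatives, 543 moved little, 67 moved and 1 reversed. A log2 ratio counted as moved when it shifted by 0.58 or more, and a percentile when it shifted by 5 points. Counts and proportions between genes counted as moved past a 1.5-fold change, and counts also when they came to or from 0. Leaving out the filter on low values could move no value, because that filter removed 0 rows. The reversal was the median log2 ratio of the cytokine response genes at E11.5, which came to -0.19 with a minimum of 5 FPKM, where fewer genes remain. With that filter, 1 JAK-STAT gene and 1 cytokine response gene were higher at E11.5, and over all 7 lists 5 genes were higher. A change of sign was counted as a reversal only for log2 ratios of 0.58 or more in size as deposited. Smaller ratios that changed sign were not counted. At E11.5, centring on the sympathetic neuron markers took the median of the 8 genes from -0.02 to 0.40. The same setting took the median of the cholinergic subtype genes from -0.29 to 0.13, and *Cntfr* from -0.40 to 0.01. As deposited, 11 list genes were higher and 9 lower at E11.5, and 4 and 2 at E14.5.

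Without erythroid genes, 4 of the 8 genes were lower at E11.5, as were 2 genes of acetylcholine handling and 3 cholinergic subtype genes, and 1 JAK-STAT gene was higher at E14.5. Centred on the sympathetic neuron markers at E11.5, 4 of the 8 were higher and 1 lower. In that setting 2 genes of acetylcholine handling, 1 ligand, 7 JAK-STAT genes and 1 noradrenergic gene were higher, 0 ligands, 0 JAK-STAT genes and 0 cytokine response genes were lower, and 18 list genes were higher and 5 lower in all. At E14.5 this setting gave 2 of the 8 higher and 1 JAK-STAT gene higher. Among called rows, the share that was higher was 59.4% at E11.5 and 57.7% at E14.5 as deposited. It came to 35.2% without erythroid genes and 89.5% centred on the sympathetic markers at E11.5, and to 63.3% and 74.7% at E14.5.

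With a pseudocount of 1, 0 ligands and 0 cytokine response genes were lower at E11.5, and with 0.01, 1 ligand was higher at E11.5 and 1 JAK-STAT gene at E14.5. At a threshold of 2-fold, 1 of the 8 was lower at E11.5. There, 0 genes of acetylcholine handling, 0 other receptors, 0 cholinergic subtype genes, 2 JAK-STAT genes and 1 cytokine response gene were higher, 0 ligands, 0 JAK-STAT genes and 0 cytokine response genes were lower, and 3 list genes were higher and 5 lower in all, while 0 JAK-STAT genes and 1 list gene in all were lower at E14.5. At 1.2-fold, 4 of the 8 were higher and 4 lower at E11.5, and 2 and 2 at E14.5. For the lists at E11.5, this gave 2 genes of acetylcholine handling higher and 2 lower, 1 ligand higher, 2 JAK-STAT genes lower, 3 cholinergic subtype genes lower, 1 noradrenergic gene higher and 15 list genes lower in all. At E14.5 it gave 1 gene of acetylcholine handling lower, 2 ligands, 1 other receptor and 2 JAK-STAT genes higher, 2 JAK-STAT genes and 1 cytokine response gene lower, 2 noradrenergic genes higher and 4 lower, and 10 list genes higher and 8 lower in all.

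With a pseudocount of 1, the ratio of *Chat* to *Dbh* came to 0.00521 and 0.00393 at E11.5 and 0.00433 and 0.00424 at E14.5, that of *Slc5a7* to *Dbh* to 0.00466 in E14.5 control ganglia, and that of *Slc18a3* to *Chat* to 12.1 and 20.8 at E11.5 and 12.5 and 11 at E14.5, control first. Apart from the settings whose construction is given, the cause was not tested. No paired analysis was possible because each genotype has 1 combined value, and leaving out single libraries was not run for the same reason. Depth is unknown, so the counting error of low genes such as *Chat* cannot be stated.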
